A study of Mus musculus with 2 samples.

Results

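The CXC chemokine genes measured in CD11b+Ly6G+ cells of mouse lung carcinoma tumors were Cxcl1, Cxcl2, Cxcl3, Cxcl9, Cxcl10, Cxcl12, Cxcl14, Cxcl16, Pf4 (also called Cxcl4) and Ppbp (also called Cxcl7). These 10 genes were found by their symbols among the 31053 genes of the deposited matrix, and all 10 held at least 20 UMIs, the unique molecular identifiers that count each captured RNA molecule once. Lewis lung carcinoma (LLC) cells, a mouse lung tumor line, were injected under the skin of C57BL/6 mice (of the J substrain, by the study's methods) of both sexes aged 8 to 12 weeks. The mice were either Smad3-WT (Smad3+/+) or Smad3-KO (Smad3-/-, with exon 8 deleted and exon 7 disrupted in every cell of the host), and the same line of LLC cells was given to both. Tumors were digested and sorted for CD11b+Ly6G+ cells, which carry surface antigens of neutrophils, and 8 tumors per genotype were mixed into 1 droplet library made with a 5′ kit. With 1 library per genotype there is no replicate, so no test of genotype was made and all intervals are exact 95% intervals that cover counting error only.

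CXC chemokines are small secreted proteins that steer leukocytes through receptors on their surface. Cxcl1, Cxcl2, Cxcl3 and Ppbp bind Cxcr2 and draw neutrophils. Cxcl9 and Cxcl10 are induced by interferons and draw T and NK cells through Cxcr3, while Cxcl12 acts on Cxcr4 and is a product of stromal cells. Cxcl16 is made as a membrane protein that can be shed and binds Cxcr6, Cxcl14 is made by epithelial and stromal cells, and Pf4 and Ppbp are best known as contents of platelet granules.

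Many of these genes lie together on mouse chromosome 5, which is why their start regions can be set side by side. In the GRCm38 annotation, Ppbp (chr5:90768518-90770063), Pf4 (chr5:90772435-90773383), Cxcl3 (chr5:90786103-90789600), Cxcl1 (chr5:90891241-90893115) and Cxcl2 (chr5:90903871-90905938) lie on the plus strand within 137421 bases, and 2372 bases separate Ppbp from Pf4. Cxcl9 (chr5:92321347-92328079) and Cxcl10 (chr5:92346638-92348889) lie farther along the same chromosome. Cxcl12 is at chr6:117168535-117181367, Cxcl14 at chr13:56288643-56296551 and Cxcl16 at chr11:70453983-70459984. The 4 stretches below come from the RefSeq promoter table of build GRCm38.p6, which held 9 of the 10 genes, and are shown because Cxcl1, Cxcl2, Cxcl3 and Cxcl10 were the members with the letters GGAATTTCC on either strand in the 250 bases before their start. GGAATTTCC is a core that NF-kB, a factor activated by inflammatory signals, can bind, and it stands in capitals here, as GGAAATTCC where it lies on the other strand. In Cxcl10 a second stretch of capitals marks an ISRE core (GAAA, any 2 bases, GAAA), letters read by interferon-activated factors.
Cxcl1, chr5:90891145-90891214, plus strand: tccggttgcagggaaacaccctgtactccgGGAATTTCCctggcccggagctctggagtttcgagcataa
Cxcl2, chr5:90903799-90903868, plus strand: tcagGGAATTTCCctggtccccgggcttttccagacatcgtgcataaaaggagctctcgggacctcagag
Cxcl3, chr5:90786001-90786070, plus strand: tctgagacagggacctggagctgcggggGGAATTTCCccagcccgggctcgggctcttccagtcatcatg
Cxcl10, chr5:92349030-92349114, minus strand: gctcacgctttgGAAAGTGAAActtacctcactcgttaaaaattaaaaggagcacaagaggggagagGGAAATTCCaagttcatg
Distances were counted from the RefSeq starts, which can differ from the annotated gene starts given above. The core began 70 bases before the start of Cxcl1, 96 before that of Cxcl2, 72 before that of Cxcl3 and 158 before that of Cxcl10. Of 32851 promoter windows in the table, 94 (0.286%) held it. The ISRE core was in the windows of Cxcl10 and Cxcl14 and in 2.98% of all windows. A match describes letters only, and no other form of the NF-kB core was searched.

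The matrix held 4116 barcodes and 23951400 UMIs for Smad3-WT and 2514 barcodes and 4214290 UMIs for Smad3-KO. After a filter on genes, mitochondrial share and depth, 3520 Smad3-WT cells (12176201 UMIs) and 2433 Smad3-KO cells (4146792 UMIs) were kept, with medians of 1318.5 and 1199 UMIs per cell. Clustering without the 10 members gave 14 clusters in 7 classes, each called "like" a cell type from its marker genes, and the sort had not left neutrophils alone. Neutrophil-like cells numbered 1821 and 1080 in Smad3-WT and Smad3-KO, macrophage or monocyte-like cells 1090 and 111, dendritic-like cells 98 and 110, B or plasma cell-like cells 3 and 572, T or NK cell-like cells 64 and 466, LLC carcinoma-like cells 399 and 33, and fibroblast-like cells 45 and 61. Of the barcode sequences, 73 occurred in both libraries, and they made up 19 of the 33 Smad3-KO carcinoma-like cells, 7 of the 61 Smad3-KO fibroblast-like cells and 0 of the 111 Smad3-KO macrophage or monocyte-like cells. In the 33 Smad3-KO carcinoma-like cells the fibroblast markers held 383 UMIs and the LLC carcinoma markers 39, beside 1017 and 6946 in the Smad3-WT cells. Their median depths were 641 and 13150 UMIs. The class name was given to the cluster over both libraries, and it is uncertain for the Smad3-KO cells. No ratio between the libraries is therefore given for the carcinoma-like cells. Their Smad3-KO cells stay in the sums over all kept cells and in the Cxcl3 share by cluster. The members' fibroblast-like ratios that are named are also given without shared barcodes, a check chosen after the data were seen.

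Levels are given as CPM, the share of a gene in the UMIs of all genes of the same cells, where 10000 CPM is 1%, and since each molecule counts once they are not divided by gene length. Smad3 stood at 14.6 CPM in the Smad3-WT and 77.4 CPM in the Smad3-KO library, and at 18.1 and 170 CPM in their neutrophil-like cells. A 5′ library reads from the start of the transcript and can count a transcript whose later exons are disrupted. Where the reads lie was not looked at, so these values do not check the labels. The cause of the higher Smad3-KO level was not tested. Over all kept cells, 3 members were past 2-fold higher in Smad3-KO (Cxcl2, Cxcl12 and Cxcl14), against 16.3% of the 12612 genes with at least 20 UMIs, and 4 were past 2-fold lower (Cxcl1, Cxcl9, Pf4 and Ppbp), against 15.4%. In neutrophil-like cells 7 members had enough UMIs, of which 1 was higher (Cxcl16) beside 7.76% of 6057 genes and 3 were lower (Cxcl3, Cxcl9 and Pf4) beside 17.7%. The lower value of Cxcl9 rests on 46 Smad3-WT and 12 Smad3-KO UMIs, with 19 and 8 in the highest cell. That of Pf4 rests on 61 and 18 UMIs, with 3 and 9 in the highest cell. In macrophage or monocyte-like cells 1 of 9 was higher (Cxcl16) beside 11.8% of 9199 genes, and 7 were lower (Cxcl1, Cxcl3, Cxcl9, Cxcl10, Cxcl14, Pf4 and Ppbp) beside 13.7%. Dividing the Smad3-KO level by the Smad3-WT level, the members had a median of 0.939 in all kept cells, 0.507 in neutrophil-like cells and 0.263 in macrophage or monocyte-like cells, while all genes had medians of 0.979, 0.799 and 1.01. In the last class the lower values of Cxcl1 and Cxcl14 rest on 2 and 0 Smad3-KO UMIs: the ratio of Cxcl1 had an interval of 0.0375 to 1.16, and the 26 Smad3-WT UMIs of Cxcl14 are too few for a bound. Sums over all kept cells also carry the mix of classes, since macrophage or monocyte-like cells held 37.4% of Smad3-WT and 6.67% of Smad3-KO UMIs and neutrophil-like cells 13.1% and 31.9%. In dendritic-like cells 2 of 7 members were past 2-fold higher (Cxcl2 and Cxcl12), beside 12.1% of 5208 genes, and 1 was lower (Pf4), beside 9.12%. In a sum over classes, fewer cells of a class and less RNA per cell cannot be told apart.

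**Figure D1:**
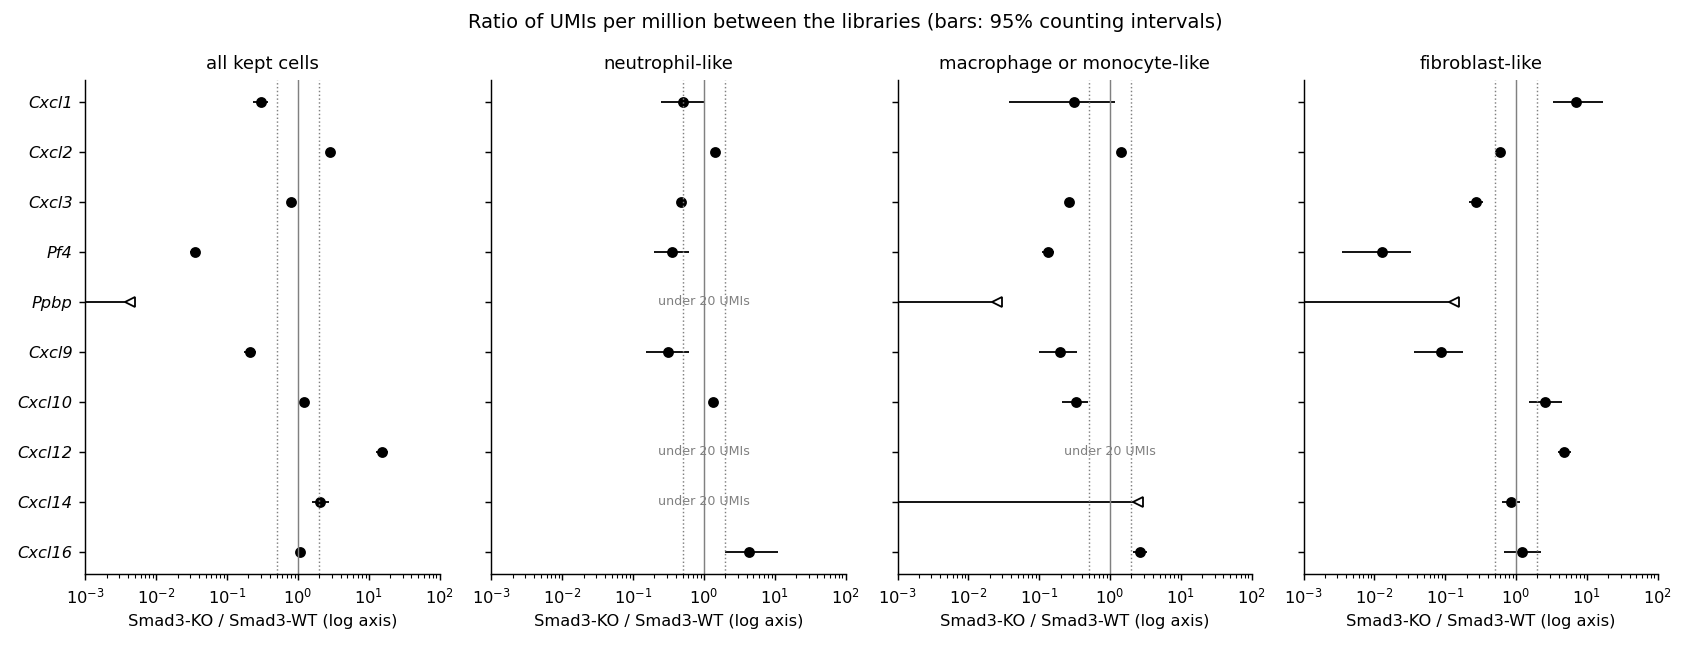
Ratio of CPM in Smad3-KO to that in Smad3-WT (log axis) for each CXC chemokine gene in 4 groups of cells, with points for the ratio, bars for the 95% counting interval, open triangles for the upper bound where Smad3-KO had 0 UMIs, and dotted lines at 2-fold. Pf4 and Ppbp lie below the lower dotted line in all kept cells and in macrophage or monocyte-like cells, and Cxcl12 lies above the upper line in fibroblast-like cells.

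Cxcl2, a chief attractant of neutrophils in the mouse, was second among all genes by UMIs in the neutrophil-like cells of both libraries. Its level was 35508 CPM in Smad3-WT (35216 to 35801) and 50348 CPM in Smad3-KO (49967 to 50732), or 3.55% and 5.03% of all UMIs. At least 1 UMI was found in 94.9% of these cells in Smad3-WT and 95.6% in Smad3-KO, and a cell held a median of 23 UMIs (highest 266) and 50 UMIs (highest 388). The gene was thus near saturated as a share of cells in both libraries, and the Smad3-KO level was 1.42 times that of Smad3-WT (1.40 to 1.43), short of 2-fold.
The difference followed the clusters. Most Smad3-WT neutrophil-like cells lay in cluster 1 (1376 cells, led by H2-Q10, Mmp9 and Il1r2) and cluster 6 (429 cells, led by Ifit3b, Ifit3 and Ifit1), whereas most Smad3-KO cells lay in cluster 2 (766 cells, led by Il1a, Tnfaip3 and Csf3, with 16 Smad3-WT cells). Cxcl2 stood at 60821 CPM in the Smad3-KO cells of cluster 2, where all 766 cells held it with a median of 66 UMIs. In cluster 1 it stood at 33272 CPM in Smad3-WT and 31824 CPM in Smad3-KO, and in cluster 6 at 42180 and 30358 CPM. Cluster 12, with 70 Smad3-KO cells led by the granule genes Ngp, Camp and Ltf of young neutrophils, held 10350 CPM. Over clusters 1 and 6 alone, which both libraries filled, the ratio was 0.882, a comparison chosen after the data were seen. Whether a cluster that 1 library fills is a kind of cell or a property of that library cannot be told apart. Granule genes moved with the class as well: the 5 granule markers summed to 653 CPM in Smad3-WT, with Camp at 0, and to 16060 CPM in Smad3-KO with none at 0, and their part in the chemokine values was not tested.

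Cxcl3, which binds the same receptor, went the other way. In neutrophil-like cells it stood at 14867 CPM in Smad3-WT (14678 to 15057) and 6943 CPM in Smad3-KO (6801 to 7086), sixth and fifteenth among all genes by UMIs. It was found in 75.2% and 68.4% of cells, with medians of 7 and 4 UMIs per cell and highest values of 110 and 83. The ratio was 0.467 (0.456 to 0.478), and over the settings tried it lay between 0.323 and 0.585, where the highest, from median-of-ratios scaling, is short of 2-fold.
Unlike that of Cxcl2, the ratio of Cxcl3 was below 0.5 inside the clusters both libraries filled. In cluster 1 the levels were 13856 CPM in Smad3-WT and 5485 CPM in Smad3-KO, a ratio of 0.396 (0.364 to 0.430). In cluster 6 they were 18244 and 3814 CPM, a ratio of 0.209 (0.185 to 0.236). In Smad3-KO, cluster 2 stood at 8299 CPM, above both Smad3-KO values and below both Smad3-WT values.
Macrophage or monocyte-like cells showed the same direction, with 2732 CPM in Smad3-WT and 719 CPM in Smad3-KO, a ratio of 0.263 (0.228 to 0.303). Cxcl2 in these cells stood at 3941 and 5550 CPM, a ratio of 1.41 (1.34 to 1.48). Within the class, cluster 3, monocyte-like and led by Ccl24, Vcan and Mmp12, went from 4175 to 814 CPM of Cxcl3 (ratio 0.195, 0.160 to 0.236), while cluster 8, macrophage-like and led by Ccl8 and C1qa, stood at 924 and 681 CPM (ratio 0.737, 0.590 to 0.911).

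The balance of both genes was set out as the UMIs of Cxcl3 in percent of those of Cxcl2 plus Cxcl3, a share that does not depend on the depth of a cell. In neutrophil-like cells it was 29.5% in Smad3-WT (29.2 to 29.8) and 12.1% in Smad3-KO (11.9 to 12.3). In macrophage or monocyte-like cells it was 40.9% and 11.5%. Among clusters with at least 20 cells of a library, the share ran from 28.1% to 43.6% over 10 Smad3-WT clusters and from 7.59% to 21.1% over 13 Smad3-KO clusters. At this cut the clusters of the libraries did not overlap. How many other pairs of genes part them in this way was not counted. Leaving out the LLC carcinoma-like cluster, with its shared barcodes, left 9 and 12 clusters with the same ranges, a check also chosen after the data were seen. Without shared barcodes the ranges were 28.1% to 43.7% over 10 clusters and 6.33% to 14.7% over 12. Fibroblast-like cells gave the value of 21.1% in Smad3-KO and had 6.33% without shared barcodes. The 16 Smad3-WT cells of cluster 2, too few for this cut, had 18.9% without shared barcodes (16.3 to 21.7). This lies between both ranges without shared barcodes, but inside the Smad3-KO range with all barcodes. The Smad3-KO B or plasma cell-like cells (10.4%) and T or NK cell-like cells (9.09%), which are not known for either gene, fell in with the Smad3-KO neutrophil-like cells. Clusters of 1 library share the free RNA of that library and are not replicates of a genotype.

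**Figure D2:**
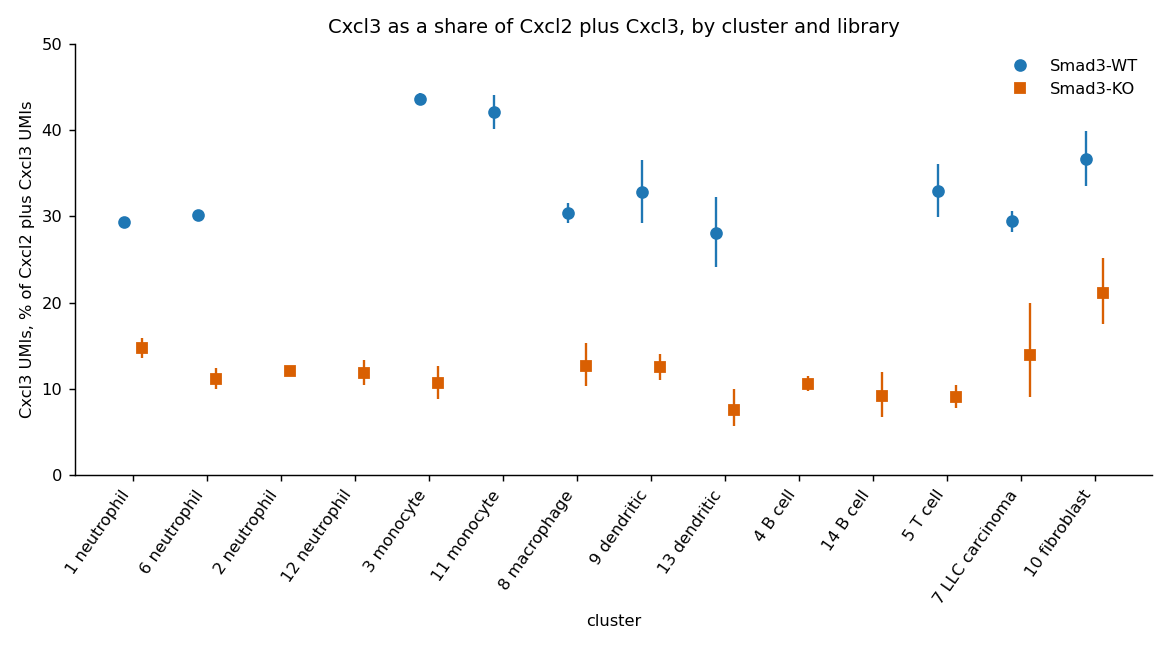
Cxcl3 UMIs in percent of Cxcl2 plus Cxcl3 UMIs (vertical axis) in each cluster (horizontal axis, with the class of the cluster) for Smad3-WT (circles) and Smad3-KO (squares), with 95% Clopper-Pearson intervals as bars and all barcodes included. The Smad3-WT clusters lie between 28.1% and 43.6% and the Smad3-KO clusters between 7.59% and 21.1%.

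Free RNA, released by broken cells, can put UMIs of a gene into droplets of cells that do not make it, so the spread of neutrophil genes was measured beside these values. For each library, the level of a gene in another class was taken in percent of its level in neutrophil-like cells and set beside the same percentage for the 8 neutrophil markers. In the Smad3-KO B or plasma cell-like cells Cxcl2 stood at 9.98% and Cxcl3 at 8.40%. Both lay within the range of the markers (1.69% to 10.2%, median 6.45%), so expression by these cells was not detectable. The UMIs were not spread evenly: in cluster 4, B cell-like, the median Smad3-KO cell held 0 UMIs of Cxcl2 and the highest 181. The 53 cells with most held 86.3% of them. How these UMIs came into the cells was not tested. Both genes were also within the range of the markers in Smad3-WT dendritic-like cells, at 4.80% and 5.10% beside 3.48% to 9.53%. In Smad3-KO dendritic-like cells they were at 11.3% and 10.4% beside 2.61% to 13.2%. The 2-fold higher Cxcl2 of that class thus compares levels that are within the neutrophil markers. Smad3-WT macrophage or monocyte-like cells were above the markers, with 11.1% for Cxcl2 and 18.4% for Cxcl3 beside 6.11% to 10.2%, and in cluster 3 the values were 15.2% and 28.1% beside 5.77% to 12.5%. In cluster 8 they were 5.97% and 6.21% beside 4.69% to 9.29%, inside the range. The 111 Smad3-KO macrophage or monocyte-like cells gave 11.02% and 10.4% beside 0% to 20.6%, so expression above the background was not detectable there at this depth. The lower Cxcl3 of this class thus compares a Smad3-WT level above the neutrophil markers with a Smad3-KO level within them. The Smad3-KO range is the wider, with Ly6g at 0 UMIs, and its 10.4% for Cxcl3 would lie above the Smad3-WT range. This contrast therefore also reflects the width of the ranges.

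**Figure D3:**
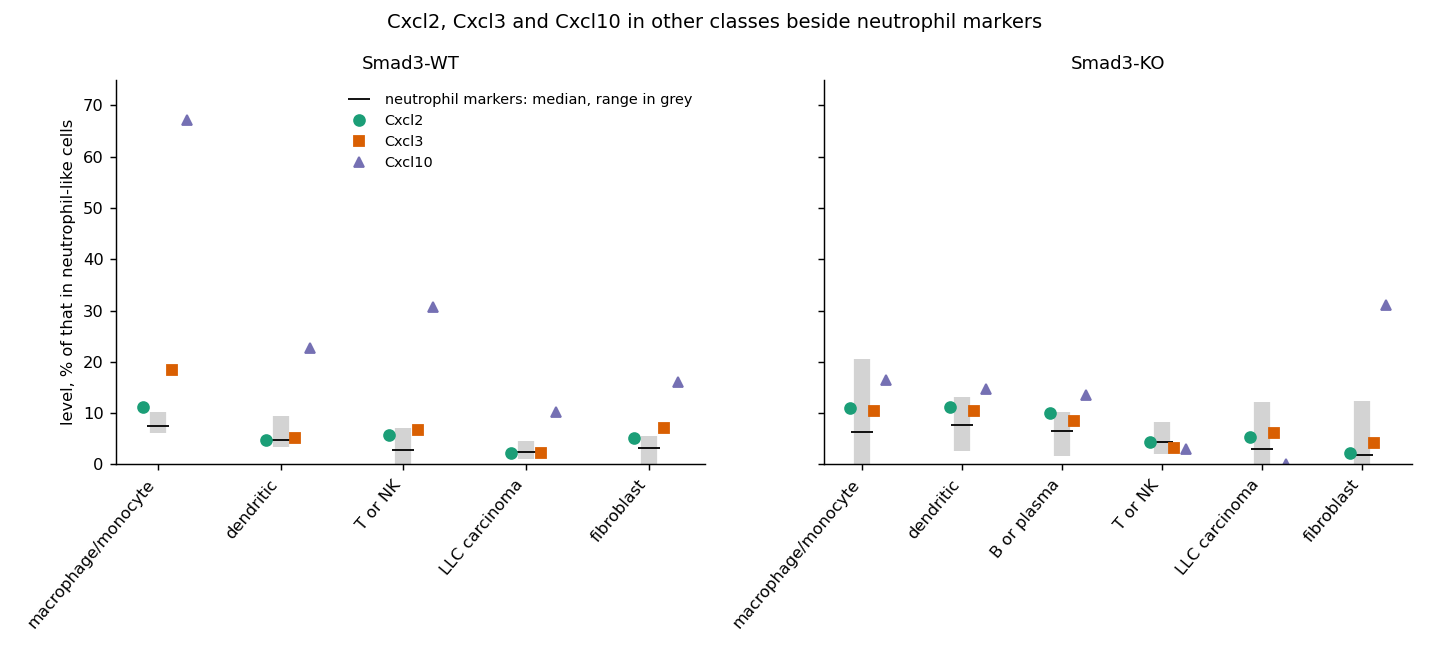
Level of Cxcl2, Cxcl3 and Cxcl10 in each other class in percent of the level in neutrophil-like cells of the same library (vertical axis), beside the range (grey) and median (line) of 8 neutrophil markers, for Smad3-WT (left) and Smad3-KO (right). In Smad3-WT macrophage or monocyte-like cells all 3 genes lie above the grey range of 6.11% to 10.2%, and in Smad3-KO they lie within 0% to 20.6%.

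Cxcl1, the third of the neutrophil attractants, was hardly found in neutrophil-like cells, at 19.4 CPM in Smad3-WT from 31 UMIs and at 9.82 CPM in Smad3-KO from 13. Of its 789 Smad3-WT UMIs, 81.5% lay in LLC carcinoma-like cells, at 130 CPM (121 to 141) and in 28.8% of these cells. In fibroblast-like cells it stood at 25.5 CPM in Smad3-WT (8 UMIs) and 178 CPM in Smad3-KO (60 UMIs, of which 25 lay in 1 cell), a ratio of 6.97 (3.32 to 16.9). Without shared barcodes the values were 19.4 and 89.2 CPM, from 6 and 22 UMIs, and the ratio 4.60 (1.81 to 13.9). Over all kept cells the level was 64.8 and 19.3 CPM, a ratio of 0.298 (0.234 to 0.375) and of 0.161 without shared barcodes, in libraries whose carcinoma-like cells held 40.5% and 1.34% of the UMIs.

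Pf4 and Ppbp were genes of the macrophage or monocyte-like cells here. Pf4 stood at 2619 CPM in these cells in Smad3-WT (2572 to 2667) and at 350 CPM in Smad3-KO (284 to 428), a ratio of 0.134 (0.108 to 0.163). It was found in 53.9% and 20.7% of the cells, at median depths of 3371.5 and 2305 UMIs, and in 34.4% and 11.7% once every cell was thinned to 500 UMIs. The class held 86.4% of the Smad3-WT and 58.1% of the Smad3-KO UMIs of Pf4.
Both clusters of the class that held Smad3-KO cells in number showed the lower level. Cluster 3 stood at 2827 CPM in Smad3-WT and 407 CPM in Smad3-KO (ratio 0.144, 0.108 to 0.188), cluster 8 at 2476 and 325 CPM (ratio 0.131, 0.0949 to 0.177), and the Smad3-WT cells of cluster 11, monocyte-like and led by Mx1 and Ms4a4c, at 1998 CPM. The macrophage markers moved in both directions: of the 10 markers, 3 were past 2-fold higher (Apoe, Adgre1 and Ms4a7), 2 past 2-fold lower (C1qb and C1qc) and the median ratio was 1.01. Of the 5 monocyte markers 1 was past 2-fold lower (Vcan) and the median ratio was 1.03. Over all genes of the class, 11.8% were past 2-fold higher and 13.7% lower.
In other classes Pf4 was measured beside the macrophage markers. In Smad3-WT neutrophil-like cells it had 38.1 CPM, 1.45% of its level in macrophage or monocyte-like cells, beside a median of 2.58% for the 10 macrophage markers. In T or NK cell-like cells it had 29.7% beside 32.5%, and in carcinoma-like cells 9.79% beside 8.58%. How these UMIs came into the other classes was not tested.

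Ppbp differed between the libraries as presence and absence. The kept Smad3-WT cells held 2586 UMIs and the kept Smad3-KO cells 0, as did all 2514 Smad3-KO barcodes. Macrophage or monocyte-like cells held 93.2% of the Smad3-WT UMIs, at 529 CPM (509 to 551). Set against a floor of 3 UMIs over the Smad3-KO group, the Smad3-WT level was 48.8 times that floor in this class. In all kept cells, where the mix of classes also counts, it was 294 times the floor. These figures treat UMIs as independent although few cells carried most of them, so they are no bound on the fold. In cells with a Ppbp UMI, 0 of 111 Smad3-KO macrophage or monocyte-like cells compare with 158 of 1090 Smad3-WT cells (14.5%, 12.5 to 16.7), where 0 of 111 allows a share of up to 2.70% by a floor of 3 cells and the exact interval reaches 3.27%.
Few cells carried most of it. In Smad3-WT, 64 macrophage or monocyte-like cells with at least 10 UMIs held 89.9% of the UMIs of the class, and the highest cell held 134. Cluster 3 stood at 861 CPM, cluster 11 at 375 CPM and cluster 8 at 157 CPM. Of the 158 cells with Ppbp, 95.6% also held Pf4, against 46.8% of the other cells of the class, at median depths of 4028 and 3273 UMIs, and Pf4 stood at 7824 CPM in the former and 1512 CPM in the latter. In cluster 3, 103 cells held both genes, 6 held Ppbp alone and 227 held Pf4 alone.
Platelets, the textbook source of both proteins, were looked for by 10 markers. These had 30 UMIs in 29 kept Smad3-WT cells and 18 in 18 Smad3-KO cells, and Gp9, Gp1ba and Tubb1 were among those at 0 in both libraries. Of the 202 Smad3-WT cells with Ppbp, 0 held a UMI of any of the 10. Since 29 of 3520 kept Smad3-WT cells held such a UMI at all, little overlap could be found, and this 0 carries little weight.

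**Figure D4:**
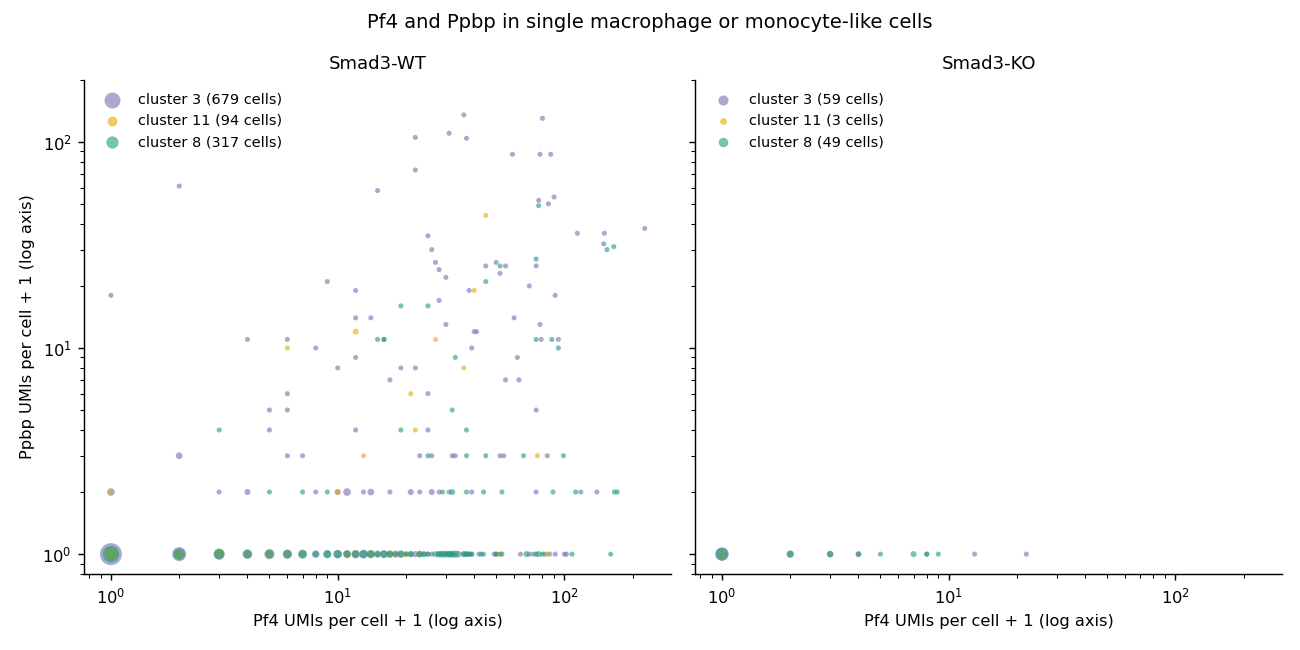
UMIs of Pf4 (horizontal) and Ppbp (vertical) plus 1 on log axes in single macrophage or monocyte-like cells of Smad3-WT (left) and Smad3-KO (right), colored by cluster, with larger points for more cells at the same values. Smad3-WT cells reach 225 UMIs of Pf4 and 134 of Ppbp, while the Smad3-KO cells lie on the line without Ppbp and reach 21 UMIs of Pf4.

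Cxcl9 and Cxcl10, the interferon-induced pair, differed in the cells that held them. In the main clustering both were past 2-fold lower in Smad3-KO macrophage or monocyte-like cells. Cxcl9 was a gene of macrophage-like cluster 8 and of dendritic-like cells. Over macrophage or monocyte-like cells it stood at 222 CPM in Smad3-WT (209 to 237) and 43.4 CPM in Smad3-KO (22.4 to 75.7), a ratio of 0.195 (0.1004 to 0.342), and in cluster 8 at 432 and 52.9 CPM. Dendritic-like cluster 9, led by Cd209a and Siglech, did not show this in its sum, with 235 and 241 CPM and a ratio of 1.03 (0.734 to 1.43). Of the 69 Smad3-KO UMIs of Cxcl9 in cluster 9, however, 36 lay in 1 cell. Over all dendritic-like cells, the levels without the highest cell of each library were 244 CPM in Smad3-WT and 81.3 CPM in Smad3-KO. In dendritic-like cluster 13, led by Ccl22, Ccl5 and Apol7c, the 29 Smad3-WT cells held 65 UMIs (554 CPM) and the 41 Smad3-KO cells 0. The ratio of the macrophage or monocyte-like class depends on the clustering: it was 0.619 with another random seed, where the class had 1157 Smad3-WT and 185 Smad3-KO cells, and 1.09 at resolution 0.1, where it had 1523 and 209.

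Cxcl10 was found in neutrophil-like and macrophage or monocyte-like cells. In neutrophil-like cells it stood at 395 CPM in Smad3-WT (365 to 427) and 524 CPM in Smad3-KO (486 to 565), a ratio of 1.33 (1.19 to 1.48) that became 0.845 over clusters 1 and 6 alone. It was in 6.15% and 17.7% of these cells, at median depths of 740 and 1016.5 UMIs, and in 4.94% and 10.7% after thinning. The wider share in Smad3-KO was that of cluster 2, where 22.8% of cells held it at 643 CPM, while in cluster 6, with its interferon-induced leading genes, the levels were 970 CPM in Smad3-WT and 586 CPM in Smad3-KO.
Cluster 11 stood apart, with 2148 CPM (1992 to 2312) in 94 Smad3-WT cells, 56.4% of which held a UMI. This level was 543% of that in Smad3-WT neutrophil-like cells, beside 0% to 8.11% for the neutrophil markers. Only 3 Smad3-KO cells lay in this cluster. Over macrophage or monocyte-like cells Cxcl10 stood at 266 CPM in Smad3-WT and 86.7 CPM in Smad3-KO, from 1211 and 24 UMIs, a ratio of 0.326 (0.208 to 0.488), or 0.173 without the highest cell of each library, a check chosen after the data were seen. In Smad3-KO fibroblast-like cells all 55 UMIs lay in 1 cell, so its ratio of 2.56 there (3.45 without shared barcodes) describes that cell.

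Cxcl16, which holds Cxcr6-bearing T cells and acts as a scavenger receptor, was the member that was past 2-fold higher in Smad3-KO in both main classes. In macrophage or monocyte-like cells it stood at 125 CPM in Smad3-WT (115 to 136) and 329 CPM in Smad3-KO (265 to 404), a ratio of 2.62 (2.08 to 3.28). The difference lay in monocyte-like cluster 3, with 59.7 and 347 CPM (ratio 5.80, 4.06 to 8.16), and cluster 8 stood at 213 and 287 CPM (ratio 1.35, 0.941 to 1.88), an interval that includes 1. Another random seed gave a class ratio of 1.75, short of 2-fold. In neutrophil-like cells the call rests on 8 and 29 UMIs (4.998 and 21.9 CPM, ratio 4.38, 1.96 to 11.1). Set against macrophage or monocyte-like cells, the Smad3-WT level was 3.99%, beside a median of 2.58% for macrophage markers. Clusters 1 and 6 alone, where Smad3-WT cells held 7 of its UMIs and Smad3-KO cells held 1, gave a ratio of 1.25, which ended the call. Dendritic-like cluster 13 had 682 CPM in Smad3-WT and 736 CPM in Smad3-KO, found in 69.0% and 80.5% of cells, and cluster 9 had 115 and 101 CPM.

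Cxcl12 and Cxcl14 were genes of fibroblast-like cells, which held 95.4% and 95.7% of the UMIs of Cxcl12 in Smad3-WT and Smad3-KO and 77.5% and 100% of those of Cxcl14. Cxcl12 stood at 399 CPM in 45 Smad3-WT cells (332 to 476) and 1921 CPM in 61 Smad3-KO cells (1776 to 2075), a ratio of 4.81 (3.97 to 5.88) and of 5.19 (4.24 to 6.38) without shared barcodes. It was in 55.6% and 73.8% of the cells, with 23 and 73 UMIs in the highest cell. The 25 Smad3-KO UMIs in dendritic-like cells lay in 1 cell. Of the fibroblast markers, 1 of 7 (Pdgfra) was past 2-fold higher and the median ratio was 1.51, or 1.59 without shared barcodes. In this class 3 of 10 members were past 2-fold higher (Cxcl1, Cxcl10 and Cxcl12), beside 8.76% of 4511 genes, and 4 were lower (Cxcl3, Cxcl9, Pf4 and Ppbp), beside 8.58%. Without shared barcodes these were the same genes in each direction, with Cxcl3 at a ratio of 0.272 with and 0.0716 without them. Macrophage markers were lower as well: 7 of the 9 with enough UMIs were past 2-fold lower, and their median ratio was 0.0979. Without shared barcodes these values were 7 of 8 and 0.0952. In the Smad3-WT cells of the class Pf4 had 35.2% of its macrophage or monocyte-like level beside a median of 36.3% for the macrophage markers. Cxcl9 did not follow this, with 275 CPM beside 222 CPM in macrophage or monocyte-like cells, and 45 of its 86 UMIs lay in 1 cell. Ppbp stood at 89.4 beside 529 CPM, and Cxcl3 at 1070 beside 2732 CPM. How the UMIs of these 4 genes came into the fibroblast-like cells was not tested.
Cxcl14 did not differ beyond counting error in fibroblast-like cells, with 319 CPM in Smad3-WT and 270 CPM in Smad3-KO, a ratio of 0.846 (0.630 to 1.14) and of 1.13 (0.840 to 1.52) without shared barcodes. Its highest cell held 36 of 100 Smad3-WT and 46 of 91 Smad3-KO UMIs. The ratio of 2.07 over all kept cells (1.57 to 2.73) became 1.42 without the highest cell of each library and 0.778 as a mean over cells, in libraries whose fibroblast-like cells held 2.57% and 8.12% of the UMIs.

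**Figure D5:**
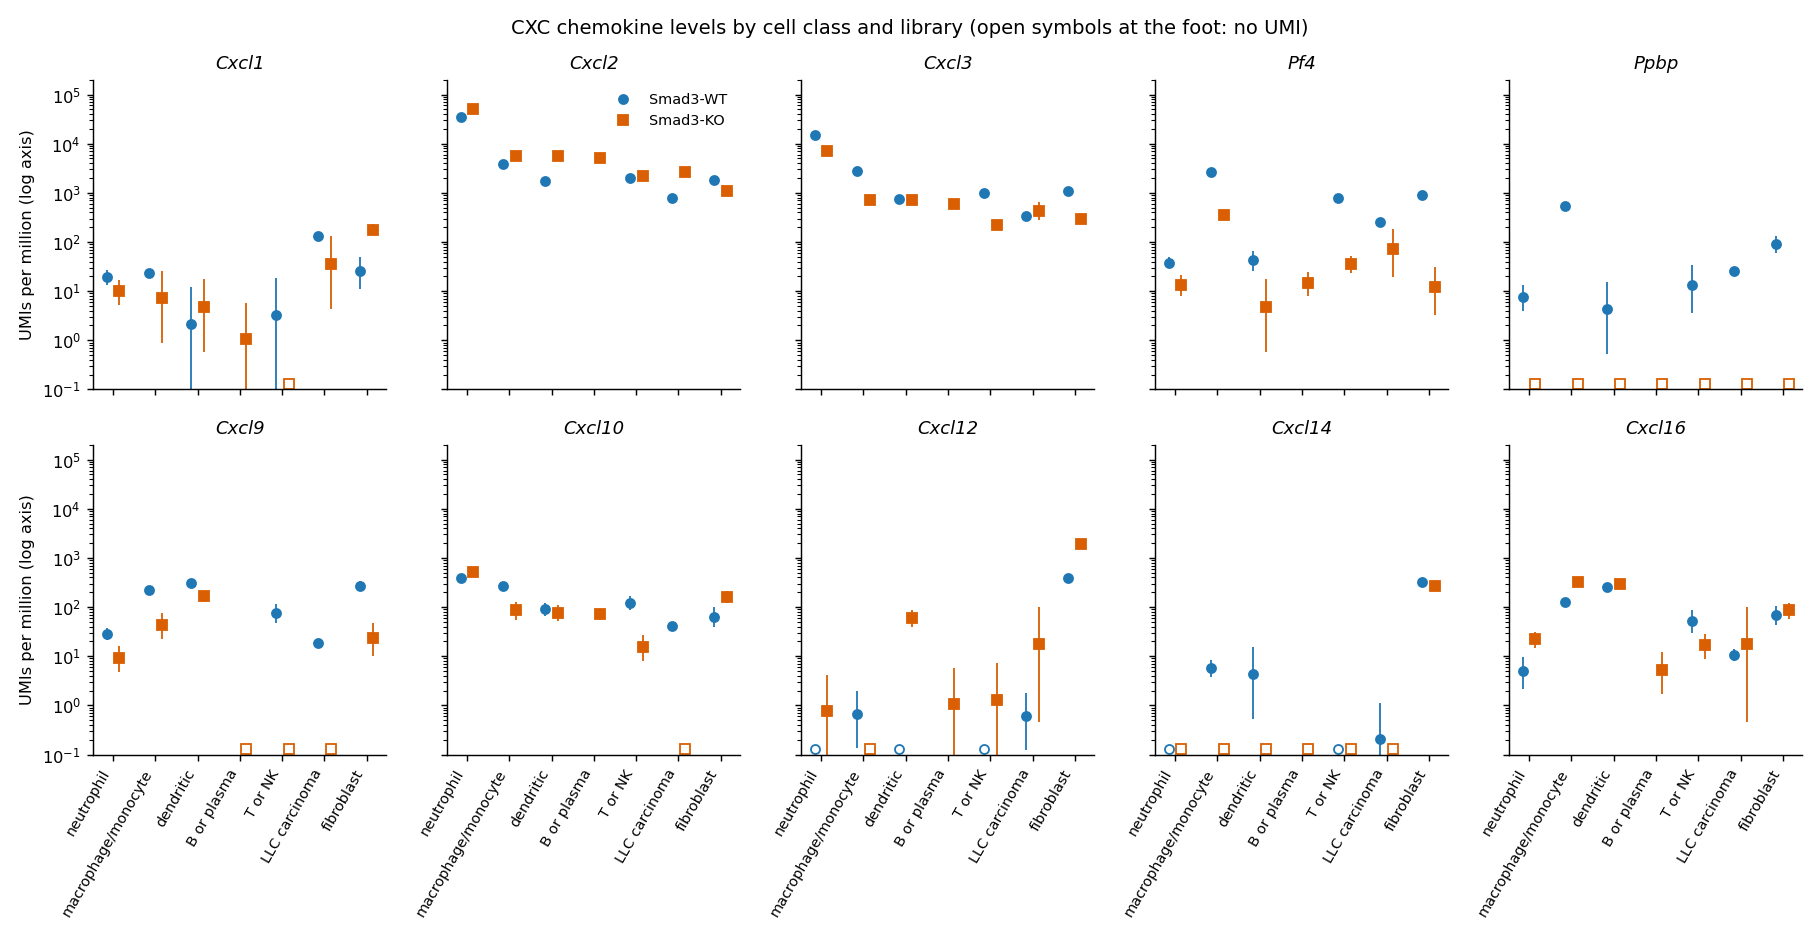
Level of each CXC chemokine gene in CPM (vertical log axis) in 7 cell classes for Smad3-WT (circles) and Smad3-KO (squares), with exact Poisson intervals as bars and open symbols at the foot where no UMI was found. Cxcl2 and Cxcl3 have their highest level in neutrophil-like cells, Pf4 and Ppbp in macrophage or monocyte-like cells and Cxcl12 and Cxcl14 in fibroblast-like cells, and 19 of the 33 Smad3-KO LLC carcinoma-like cells have shared barcodes.

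The receptors of the neutrophil attractants were measured in the same cells. In neutrophil-like cells Cxcr2 stood at 735 CPM in Smad3-WT and 348 CPM in Smad3-KO, a ratio of 0.474, and Cxcr4, the receptor of Cxcl12, at 468 and 205 CPM, a ratio of 0.438. Of the 10 receptors listed, 3 had at least 20 UMIs there. Of those, these 2 were past 2-fold lower, beside 17.7% of all genes in the class, and Cxcr1 was not (34.4 and 40.8 CPM). Cxcr2 differed between the clusters that both libraries filled, with 817 CPM in Smad3-WT (767 to 870) and 1190 CPM in Smad3-KO (993 to 1415) in cluster 1, but 488 CPM (420 to 563) and 191 CPM (104 to 320) in cluster 6. The Smad3-KO cells of cluster 2 held 270 CPM (238 to 305), and so in Smad3-KO Cxcl2 and Cxcr2 stood in opposite order between clusters 1 and 2. Cxcr2 was not withheld from the clustering and is among the genes that lead cluster 1, so this order is no independent evidence.

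Other genes with NF-kB sites or interferon control were counted from lists of such genes. Of 11 NF-kB-driven genes in neutrophil-like cells, 7 were past 2-fold higher in Smad3-KO and 0 lower, among them Nfkbia, an inhibitor of NF-kB (2016 and 7653 CPM), Tnf (200 and 789 CPM) and Csf3, the growth factor of neutrophils (7.50 and 294 CPM). Ccl3 and Il1b stayed under 2-fold with Cxcl2, at ratios of 1.37 (1.34 to 1.40) and 1.004 (0.980 to 1.03). Over all genes of this class, 7.76% were past 2-fold higher and 17.7% lower. Cluster 2 is in part defined by these NF-kB-driven genes, so their count is no independent evidence. Of the 4 members with the exact letters GGAATTTCC in their promoter, 0 were past 2-fold higher in neutrophil-like cells, beside 7.76% of all genes. Cxcl3, among them, was past 2-fold lower, beside 17.7%. Of 12 interferon-driven genes, 10 had enough UMIs, of which 4 were higher there (Irf1, Gbp2, Gbp4 and Gbp5) and 0 lower. In macrophage or monocyte-like cells, where Cxcl9 and Cxcl10 were past 2-fold lower, 0 of 10 were past 2-fold in either direction, with Isg15 at a ratio of 1.08 (0.914 to 1.27). Over all genes of that class, 11.8% were past 2-fold higher and 13.7% lower. Of 5 proteases known to cut CXC chemokines, 3 had enough UMIs in neutrophil-like cells. Adam17 was past 2-fold higher (68.7 and 206 CPM), beside 7.76% of all genes. Mmp9 was past 2-fold lower (1178 and 407 CPM), along with Adam10, beside 17.7%.

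Likeness of pattern was taken as Pearson's r of log2(CPM + 10) over the 14 clusters, both libraries pooled, against 7353 genes with at least 200 UMIs. It describes clusters that differ in library and depth, and carries no test. Cxcl2 was most like Ccl3 (r = 0.98), Arg2 and Il1b, and Cxcl3 most like Cd14 (r = 0.97), Clec4d and Rab44. Pf4 was most like F13a1 (r = 0.97), Arg1 and Cdk20, and Ppbp most like Ccl24 (r = 0.98), Nt5dc2 and Cdk20. Cxcl12 was most like Dcn (r = 0.98), Lum and Fbln2, Cxcl14 most like Htra3 (r = 0.99), Col14a1 and Cpxm1, and Cxcl10 most like Ifit2 (r = 0.94), Irgm1 and Ifi204. Cxcl9, Cxcl16 and Cxcl1 had Hfe (r = 0.92), Hsd3b7 (r = 0.93) and Errfi1 (r = 0.88) as their first. Among the members, r was 0.94 for Cxcl12 with Cxcl14, 0.91 for Pf4 with Ppbp, 0.88 for Cxcl2 with Cxcl3, 0.86 for Cxcl9 with Cxcl16 and -0.06 for Cxcl9 with Cxcl10. With a pseudocount of 1 in place of 10, 0 of the first 3 genes stayed among the first 3 for Pf4 and 1 of 3 each for Cxcl1, Cxcl9 and Cxcl16, where Hfe and Hsd3b7 dropped out.

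The authors' own averages gave another grouping of the cells into 13 clusters, with both libraries pooled and no error. As CPM, Cxcl2 was highest in their cluster 3 (64345), followed by cluster 4 (43501) and the neutrophil-marked cluster 1 (41023), and Cxcl3 was highest in cluster 1 (18115), with 8851 in cluster 3. By markers, cluster 4 was led by the erythroid list (5 of 5), and cluster 3 had at most 1 marker of any list. Among the kept cells, however, neutrophil-like cells held 343 of the 480 Smad3-WT and 1718 of the 1736 Smad3-KO UMIs of the erythroid list. That lead therefore does not make cluster 4 an erythroid cluster, and its Cxcl3 stood at 12996. Pf4 and Ppbp changed places between clusters 5 and 7, which carried monocyte and macrophage markers: Pf4 stood at 2123 and 2429, and Ppbp at 765 and 279. Cxcl1 (164), Cxcl12 (92.9) and Cxcl14 (19.0) were highest in cluster 2. That cluster carried 7 of 7 fibroblast markers and 5 of 5 LLC carcinoma markers, so fibroblast and carcinoma markers are not apart in it. Cluster 11 was led by the LLC carcinoma markers (5 of 5), and there Cxcl1 stood at 150, Cxcl12 at 0 and Cxcl14 at 0.112. Cxcl16 was highest in the dendritic-marked cluster 13 (390) and Cxcl9 in cluster 7 (287), with 256 in cluster 13.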

How the data were processed

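The authors deposited a matrix of counts (UMIs by gene and barcode), made with a 5′ kit and, per the submitters' processing notes, Cell Ranger 3.0.2 and build mm10. The authors' deposited averages of the libraries are a signal, the UMIs of a gene over the library total times 1311, the median UMIs of all barcodes. Barcodes were assigned to Smad3-WT or Smad3-KO because their sums equalled these averages, with differences of at most 3.58e-08, against 31.8 for the other library. The deposited averages of 13 clusters have the same unit, for pooled cells. The deposited log2 fold changes and p-values of the authors were not used.

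The filter of the study's methods was used: 200 or more genes, a mitochondrial share below 10%, and a depth above 500 and below 20000 UMIs. Counts scaled to 10000 per cell were clustered with scanpy 1.11.5 and igraph 0.11.9 (2000 variable genes without the 10 members, 100 principal components, 15 neighbours, Louvain resolution 1, seed 1). A cluster was named where at least 3 markers of a cell type were in 10% of its cells at 2 times the level of other cells. The authors' own cell names were not used, and these rebuilt names can differ from those of the study. UMIs were summed per class and library as CPM with exact Poisson intervals, shares carry Clopper-Pearson intervals, and ratios carry conditional binomial intervals, all at 95%. A ratio past 2-fold with at least 20 UMIs over both libraries was counted. Scrublet scores were computed, no doublet was removed, and leaving out the 5% highest was an alternative. Thinning to 500 UMIs left out no cell. The calculation was run on simulated counts drawn from the Poisson model that the intervals assume. This cannot show whether the intervals hold for UMIs that lie in few cells. Scripts ran under Python 3.11.15 with scipy 1.17.1 for intervals, matplotlib 3.10.9 for plots, and pandas 2.3.3 and numpy 2.4.6.

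The members, the lists of receptors, ligands, proteases, NF-kB-driven and interferon-driven genes, and the cell type markers were chosen with earlier results of these data known. Other genes were named only from these lists, as the 3 genes most like a member, or as genes that lead a cluster.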

Additional observations from a re-analysis of the deposited data

Results flagged for a closer look

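Cxcl1 had more UMIs outside the kept cells than in them. The quality filter removed 1991 Smad3-WT UMIs of Cxcl1 and kept 789. Of those removed, 1938 lay in the 382 Smad3-WT barcodes above the upper limit on UMIs, at 170 CPM, against 64.8 CPM in the kept cells. All 382 barcodes held a UMI of an LLC carcinoma marker, with 1364 CPM for the 5 markers together. No Smad3-KO barcode was above the limit, so there is no Smad3-KO value to set beside it.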

How the results depend on the processing

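Counts of members past 2-fold changed in few of the alternatives. Of 80 recomputed counts, 76 were within 1.5 times the main count. Values over all kept cells cannot move under settings that change only the clustering, yet they count as unmoved, here and among the single ratios below. The ratios of Ppbp, which had 0 UMIs in all Smad3-KO barcodes, cannot move either. With a mean over cells of CPM per cell, 1 member was higher in Smad3-KO over all kept cells, against 3, and the ratio of Cxcl14 was 0.778, against 2.07. At resolution 0.1, where the macrophage or monocyte-like class had 1523 Smad3-WT and 209 Smad3-KO cells, 3 members were higher and 4 lower, against 1 and 7, and the ratio of Cxcl9 was 1.09, against 0.195. With a minimum of 50 UMIs, 0 members were higher in neutrophil-like cells, against 1, since Cxcl16 has fewer. Of 293 single ratios 209 moved by less than their interval, 82 moved by more, and 2 that had been past 2-fold crossed 1, both given above. Another 6, under 2-fold as reported, also crossed 1. Over neutrophil-like clusters 1 and 6 alone, the ratios were 2.26 for Cxcl1 (against 0.507), 0.882 for Cxcl2 and 0.845 for Cxcl10. The value of Cxcl1 rests on 7 Smad3-KO UMIs in cluster 1, all in 1 cell, and 1 in cluster 6, beside 15 and 16 Smad3-WT UMIs. Over all kept cells the ratios were 0.931 for Cxcl10 as a mean over cells, and 1.47 and 1.48 for Cxcl3 with all barcodes and with no upper limit on UMIs. The ratio of Cxcl3 over all kept cells, under 2-fold, ranged from 0.394 to 1.48, and that of Cxcl2 in neutrophil-like cells from 0.882 to 1.78. Median-of-ratios scaling gave 1.78 for Cxcl2 and 0.585 for Cxcl3 in neutrophil-like cells, the latter no longer past 2-fold, where the median of all genes was shifted by -0.33 on the log2 scale. Thinning moved 41 of 60 shares of cells. The cause of these changes was not tested beyond what each setting does. No paired analysis was possible because each genotype has 1 library. Among the classes compared, depth was lowest in the Smad3-KO macrophage or monocyte-like cells, where 111 cells and 276750 UMIs set a floor of 10.8 CPM.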

Other observations

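Other CXC ligands were measured in the same cells. Cxcl5, a neutrophil attractant of epithelial and stromal cells, stood at 51.1 CPM in Smad3-WT and 1003 CPM in Smad3-KO fibroblast-like cells, a ratio of 19.6 (11.9 to 34.8), and at 32.3 and 474 CPM without shared barcodes, a ratio of 14.7 (7.71 to 31.4). Over all kept cells its ratio was 6.09 with and 2.34 without shared barcodes. Cxcl13, which draws B cells, had 65 UMIs in Smad3-KO dendritic-like cells, all in 1 cell. Among receptors, Ackr3, which takes up Cxcl12, stood at 163 and 570 CPM in fibroblast-like cells, a ratio of 3.50 (2.56 to 4.87) and of 3.56 (2.55 to 5.04) without shared barcodes, beside the higher Cxcl12 there. Cxcr6, the receptor of Cxcl16, stood at 220 and 47.4 CPM in T or NK cell-like cells, from 67 and 37 UMIs, a ratio of 0.216 (0.140 to 0.327), and Cxcr3 at 39.3 and 38.4 CPM, a ratio of 0.977 (0.486 to 2.10). The make-up of this class differed: NK cell markers summed to 1295 CPM in Smad3-WT and 302 CPM in Smad3-KO, and T cell markers to 2679 and 3969 CPM. The part of this in the receptor values was not tested.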
